A study of Mus musculus with 16 samples.

Results

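The response of DPP4-negative adipose progenitor cells (DPP4_neg APCs) to isoproterenol was read from the 4 DPP4_neg_isoproterenol libraries set against the 4 DPP4_neg_vehicle libraries, which are 8 of the 16 RNA-seq libraries of the series. The libraries were chosen by their labels alone, and no DPP4_pos library entered the test. The cells were PDGFRb+ stromal cells that had been sorted by flow cytometry from the inguinal white fat of C57BL/6 mice, grown with serum, and then given PBS (the vehicle) or isoproterenol for 4 h. The labels print the dose as 10 mM. They give no age or sex of the mice, and they do not say whether the 4 libraries of a group came from separate cultures or animals, so the p-values rest on variation among libraries whose origin is unknown and that may be technical repeats. The question put by the design is how these progenitors answer a beta-adrenergic stimulus, the signal that sympathetic nerves deliver to fat in the cold.

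Isoproterenol is a synthetic catecholamine that activates beta-adrenergic receptors. These receptors act through the stimulatory G protein on adenylyl cyclases, and the cAMP so made opens protein kinase A (PKA) and the exchange factor EPAC. PKA phosphorylates CREB, a transcription factor that binds cAMP response elements in promoters, and the same pathway induces its own brakes, among them phosphodiesterases, which destroy cAMP, and the short repressor isoforms of Crem. In adipocytes the pathway is known for lipolysis and heat production, and in fibroblast-like cells it is known to loosen actin stress fibres. Stromal progenitors of fat can become adipocytes, make matrix and secrete cytokines that act on immune cells and nerves.

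Each library held 10191846 to 28627223 reads in genes. Values are normalized counts, the reads of a gene divided by the size factor of the library, and a log2 change is the difference of the group means of log2(normalized count + 1), isoproterenol minus vehicle, ± its standard error from limma. This scale understates the change of low genes. A value with ± that follows a gene name and carries no unit is such a log2 change. A gene was tested when it reached 10 normalized counts in at least 4 of the 8 libraries, and it is said to have risen or fallen when the limma p-value, adjusted by the Benjamini-Hochberg method over all 13359 genes tested, was under 0.05. Against the label, Pdgfrb was high, at 11315 ± 149.4 normalized counts in vehicle and 9028 ± 396.2 in isoproterenol libraries (mean ± SD, n = 4). Dpp4, for whose product the cells were sorted as negative, was low. It had 15.3, 23.4, 24.6 and 21.0 in vehicle replicates 1 to 4 and 9.72, 8.81, 7.89 and 13.1 under isoproterenol, a log2 change of -1.02 ± 0.25. Among defining markers of other cells, Myod1 of muscle and Msln of mesothelium had no more than 2 reads in any group, and Sox10 of Schwann cells no more than 6 reads. Other members of these lists were expressed, with Acta1, Krt19 and Ngfr at 817.0 ± 121.4, 677.1 ± 70.5 and 380.2 ± 76.9 normalized counts in vehicle libraries. Leukocyte markers summed to 462.9 to 1051 in vehicle libraries. The 8 adipocyte markers that could be tested were expressed, with Adipoq at 7933 ± 382.3 normalized counts in vehicle libraries.

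The response was broad. Limma called 8906 of the 13359 genes, 66.7% of them, with 4273 risen (32.0%) and 4633 fallen (34.7%), and these shares are the background against which the counts for gene groups below should be read. At least 2-fold changes were called in 1954 genes (14.6%), 771 up (5.77%) and 1183 down (8.86%). The balance turned with size: 148 genes rose and 83 fell at least 8-fold, and 35 rose and 5 fell at least 32-fold. These counts use fitted folds. They include genes with 10 reads or fewer in a group, 63 of all tested, whose fitted size depends on the pseudocount. In 8079 genes (60.5%) no library of one group reached into the range of the other. The median log2 change of all genes tested was -0.02. The first principal component held 87.4% of the variance and set the groups apart, with the 4 vehicle libraries at 50.48 to 53.92 and the 4 isoproterenol libraries at -52.95 to -51.71. In 299 of the genes tested every library of one group lay under 10 normalized counts, so that these genes passed the filter through the other group.

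**Figure D1:**
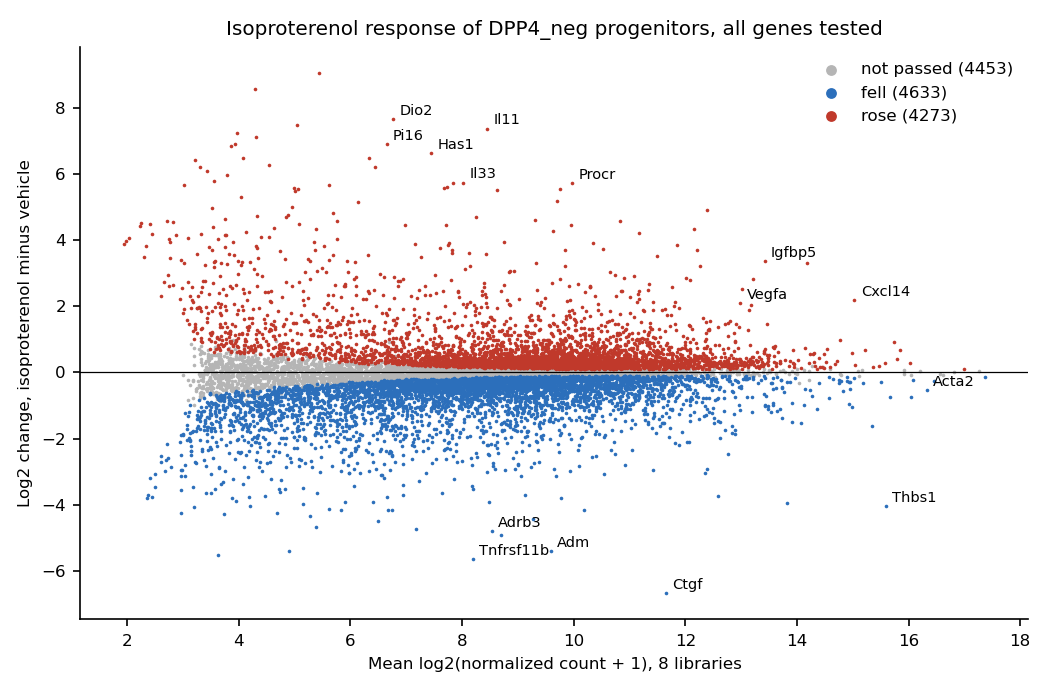
Log2 change (isoproterenol minus vehicle, vertical) against mean log2(normalized count + 1) over the 8 libraries (horizontal) for the 13359 genes tested; red points rose and blue points fell at a limma adjusted p under 0.05, grey points did not pass. The 4273 risen and 4633 fallen genes are close in number, and Dio2 at 7.65 ± 0.12 and Ctgf at -6.67 ± 0.07 are the outermost genes among those with over 10 reads in each group.

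The genes that rose most form a mixed set of secreted signals, surface proteins and enzymes. Il11, an IL-6 family cytokine on chromosome 7 from 4772373 to 4782907 (GRCm38), read 22.1, 27.3, 24.1 and 31.8 normalized counts in vehicle replicates 1 to 4 and 4649, 4202, 4209 and 4948 in isoproterenol replicates 1 to 4. Its lowest isoproterenol library was far above its highest vehicle library, and the log2 change was 7.37 ± 0.10 (limma adjusted p = 7.38e-18). Dio2, the deiodinase that activates thyroid hormone, on chromosome 12 from 90724552 to 90739038, went from 5.34, 5.84, 7.84 and 8.12 to 1632, 1474, 1629 and 1461 normalized counts, again without overlap, a log2 change of 7.65 ± 0.12 (limma adjusted p = 7.55e-17). Has1, a synthase of hyaluronan, on chromosome 17 from 17833691 to 17855589, read 29.0, 9.74, 12.3 and 21.0 under vehicle and 1655, 1694, 1809 and 1782 under isoproterenol. It rose by 6.63 ± 0.23 on the log2 scale, in all 4 libraries. Procr, the endothelial protein C receptor, which is also carried by some stem and progenitor cells, rose from 125.8, 134.4, 128.2 and 164.4 to 6808, 7772, 7226 and 7357 normalized counts (5.72 ± 0.07).

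The peptidase inhibitor Pi16 rose by 6.90 ± 0.13, the alarmin Il33 by 5.74 ± 0.07, the complement regulator Cd55 by 5.53 ± 0.07 and the orphan nuclear receptor Nr4a3 by 6.48 ± 0.12. The epithelial keratin genes Krt20 (6.22 ± 0.30) and Krt13 (5.55 ± 0.30) rose as well, although Krt13 reached only 230.1 ± 45.3 normalized counts. Star, which carries cholesterol into mitochondria for steroid synthesis, rose by 5.56 ± 0.12, from 32.0, 35.1, 21.3 and 29.1 to 1359, 1466, 1382 and 1433 normalized counts. The remaining genes of the 15 largest rises were Stac2 (5.74 ± 0.11), an adaptor of calcium channels, the phospholipase Liph (5.66 ± 0.14), the GTPase Gem (5.59 ± 0.11), an inhibitor of calcium channels, and the G-protein gamma subunit Gng4 (5.56 ± 0.17).

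Some genes came up from nearly no reads, so that the ratio of reads is given in place of a fitted fold. The renin gene Ren1, on chromosome 1 from 133350674 to 133360320, had 0 reads in the vehicle libraries together and 1577 under isoproterenol. Per unit of depth it was at least 737.5-fold higher, from a floor of 3 counts over the vehicle group, and its isoproterenol libraries held 353.9, 464.7, 326.5 and 393.8 normalized counts. Ramp3, a partner of calcitonin-family receptors, went from 5 to 4044 reads, a ratio of 1135 with a 95% counting interval of 485.9 to 3497. Nppc, which encodes C-type natriuretic peptide, went from 2 to 752 reads, a ratio of 527.5 (145.5 to 4364). The potassium channel gene Kcnk10 (478.4, 85.3 to 18952), the sialidase Neu2 (431.4, 118.9 to 3571) and the aldo-keto reductase Akr1b7 (340.9, 60.6 to 13521) had the next largest ratios. These intervals and floors cover counting error only. Akr1b7 and Star are both known from steroid-producing cells. Singled out after its values were seen, the steroid dehydrogenase gene Hsd3b6 went from 2 to 355 reads, whereas Cyp11a1, which takes the first step from cholesterol to steroids, had 1 read under vehicle and 3 under isoproterenol, and the lipoprotein receptor Scarb1 fell (-1.38 ± 0.06).

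Several risen genes have a promoter window with a cAMP response element or its half-site. Their RefSeq windows of GRCm38.p6 are printed here because CREB is the factor at which the pathway ends. The genes were picked by hand, and only windows with a match are printed. Windows of other risen genes, such as Il11, Crem and Pde4d, are not shown. Each printed window is the 250 bases before 1 annotated start of the gene, 5′ to 3′ on the strand of the gene. That start need not be the outer end of the gene's whole span. In Nr4a1 and Has1 the window lies inside the span, and in Nr4a3 it lies mostly inside. Matches to the full element or the half-site are in capitals. The full element is TGACGTCA, and its half-site TGACG, which is contained in it, reads CGTCA on the other strand; both strands were searched. The full element was found in 1.55% and the half-site in 17.77% of all 32851 such windows. The first 3 hold the full element, 88 bases before the start in Dio2, 76 in Has1 and 54 in Areg, whose product is the EGF family ligand amphiregulin. The Areg window also holds a separate half-site 111 bases before the start. The last 2, of the NR4A nuclear receptor genes Nr4a1 and Nr4a3, hold 4 half-sites each and no full one.
Dio2, chr12:90739039-90739288, minus strand: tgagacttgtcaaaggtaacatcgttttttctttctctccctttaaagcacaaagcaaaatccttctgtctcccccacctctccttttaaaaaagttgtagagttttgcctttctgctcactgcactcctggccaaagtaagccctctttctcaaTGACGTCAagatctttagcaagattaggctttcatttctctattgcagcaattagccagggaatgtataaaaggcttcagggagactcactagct
Has1, chr17:17855189-17855438, minus strand: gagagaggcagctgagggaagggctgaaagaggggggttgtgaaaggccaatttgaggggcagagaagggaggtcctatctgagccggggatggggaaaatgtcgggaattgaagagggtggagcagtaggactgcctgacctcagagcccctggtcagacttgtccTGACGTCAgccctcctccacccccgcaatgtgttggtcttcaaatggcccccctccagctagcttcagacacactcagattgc
Areg, chr5:91139349-91139598, plus strand: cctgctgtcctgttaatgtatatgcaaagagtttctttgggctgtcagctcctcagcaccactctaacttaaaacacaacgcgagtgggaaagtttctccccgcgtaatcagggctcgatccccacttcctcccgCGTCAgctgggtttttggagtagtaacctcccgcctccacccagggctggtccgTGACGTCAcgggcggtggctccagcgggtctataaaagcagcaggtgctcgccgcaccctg
Nr4a1, chr15:101266596-101266845, plus strand: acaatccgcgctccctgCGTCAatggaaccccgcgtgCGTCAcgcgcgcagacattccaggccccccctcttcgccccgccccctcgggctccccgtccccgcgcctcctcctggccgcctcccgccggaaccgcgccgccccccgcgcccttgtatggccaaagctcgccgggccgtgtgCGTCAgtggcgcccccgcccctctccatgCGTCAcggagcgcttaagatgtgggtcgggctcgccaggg
Nr4a3, chr4:48045055-48045304, plus strand: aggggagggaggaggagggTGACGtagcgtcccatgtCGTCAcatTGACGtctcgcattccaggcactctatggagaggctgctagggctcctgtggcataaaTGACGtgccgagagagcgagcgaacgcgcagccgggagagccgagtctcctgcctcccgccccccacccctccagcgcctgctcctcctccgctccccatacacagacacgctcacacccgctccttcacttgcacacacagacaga
A match describes these letters and does not show binding. Among the genes tested, 10349 (77.5%) had a window in the table, too few to give the share of risen or fallen promoters that hold an element, and the same holds for the antioxidant element of NRF2.

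The largest fall was that of Ctgf, a matricellular protein and a standard target of YAP, on chromosome 10 from 24595442 to 24598683. It read 33308, 31728, 31474 and 33626 normalized counts under vehicle and 275.3, 354.6, 293.4 and 354.4 under isoproterenol, a log2 change of -6.67 ± 0.07 (limma adjusted p = 1.46e-18). Every isoproterenol library held a small fraction of the lowest vehicle library. Tnfrsf11b, osteoprotegerin, the decoy receptor for RANK ligand, read 1904, 2344, 2201 and 1870 under vehicle and 32.4, 40.4, 42.6 and 47.3 under isoproterenol (-5.65 ± 0.10). The vasodilator peptide gene Adm changed by -5.39 ± 0.07, the neurite protein gene Gprin3 by -5.39 ± 0.19 and the muscle-type actin nucleator Lmod1 by -4.91 ± 0.09. Others of the 15 largest falls were Ankrd1 (-4.73 ± 0.13) and Fhl2 (-4.42 ± 0.06), both tied to the contractile cytoskeleton, Sorbs2 (-4.49 ± 0.12), a focal adhesion adaptor, the cadherin Cdh3 (-4.34 ± 0.27), the Wnt agonist Rspo2 (-4.17 ± 0.11), the soluble guanylyl cyclase subunit Gucy1a1 (-4.16 ± 0.16), and Kprp (-4.67 ± 0.23) and Lbh (-4.16 ± 0.05). Both Adrb3 and Adra1a, receptors of the noradrenaline family, were in this set as well. Npas4, an activity-dependent transcription factor, went the other way from most early genes, from 477 reads to 4, and it was named after its values were seen.

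**Figure D2:**
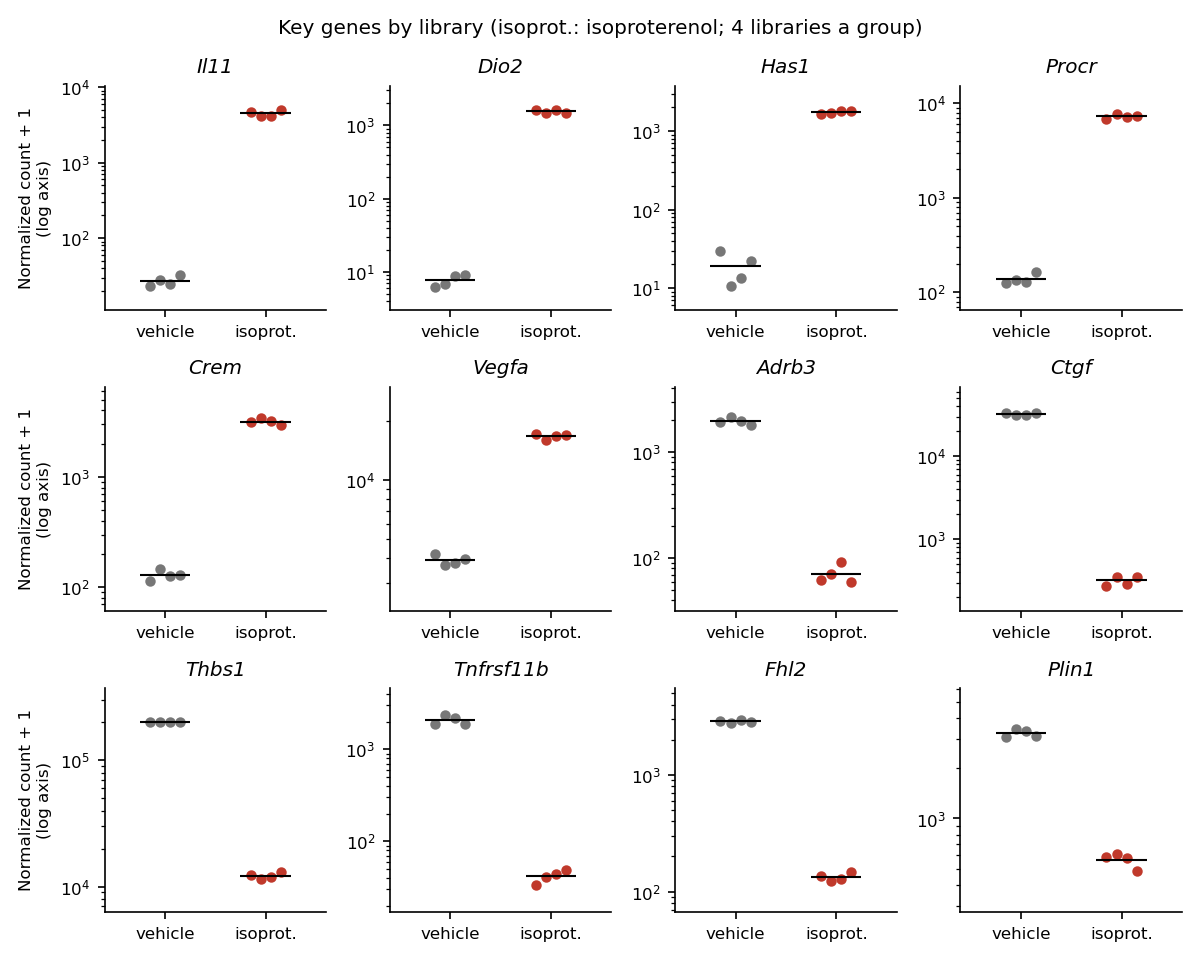
Normalized counts (vertical, logarithmic axis after adding 1) of 12 genes in each of the 4 vehicle (grey) and 4 isoproterenol (red) libraries; points are libraries and bars are group means. No panel has overlapping groups, Il11, Dio2, Has1, Procr, Crem and Vegfa lie higher under isoproterenol, and Adrb3, Ctgf, Thbs1, Tnfrsf11b, Fhl2 and Plin1 lie lower.

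Adrenergic receptor genes, at the top of the pathway, fell or did not pass. Adrb3, the main beta receptor of mouse fat, on chromosome 8 from 27225776 to 27230845, read 1929, 2148, 1982 and 1815 normalized counts in vehicle and 61.5, 69.7, 91.5 and 59.1 in isoproterenol libraries, a log2 change of -4.80 ± 0.11 (limma adjusted p = 4.90e-15). Its groups lay far apart. Adrb1, at a low 23.0 ± 4.16 normalized counts under vehicle, did not pass (0.20 ± 0.25, limma adjusted p = 0.514). The alpha-1 receptors, which act through calcium rather than cAMP, fell as well, with Adra1a at -4.24 ± 0.27, Adra1d at -2.76 ± 0.08 and Adra1b at -1.63 ± 0.12, while the inhibitory Adra2a did not pass (-0.25 ± 0.14), though it was called without isoproterenol replicate 2 (-0.35 ± 0.14). Among 7 arrestins and receptor kinases, which switch receptors off, Arrb1 (1.01 ± 0.05), Grk5 (0.54 ± 0.05) and Grk2 (0.40 ± 0.05) rose, and Grk3 (-1.17 ± 0.18) and Grk6 (-0.20 ± 0.04) fell.

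G proteins and adenylyl cyclases moved in both directions, 6 up and 7 down of 14. Among the cyclases, which make cAMP, Adcy2 (2.31 ± 0.12), Adcy3 (1.70 ± 0.04) and Adcy9 (0.56 ± 0.10) rose, while Adcy1 (-1.26 ± 0.15) and Adcy7 (-0.76 ± 0.14) fell. The inhibitory subunit Gnai1 fell (-1.56 ± 0.07), whereas Gnao1 rose (1.72 ± 0.05).

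Phosphodiesterases moved in both directions. Of 14 tested, 8 rose and 6 fell, and every one was called. Pde4d, the cAMP-specific enzyme on chromosome 13 from 108654177 to 109955969, read 266.9, 249.2, 241.4 and 263.2 normalized counts under vehicle and 3543, 3407, 3186 and 3204 under isoproterenol. Its libraries rose together, by 3.70 ± 0.05 (limma adjusted p = 1.57e-17). Pde10a rose by 3.95 ± 0.07, Pde7b by 2.47 ± 0.07, Pde4b by 2.01 ± 0.10 and Pde11a by 1.46 ± 0.13. The calcium-activated Pde1b fell by 3.11 ± 0.11 and Pde3a by -0.48 ± 0.07.

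Downstream, genes moved in both directions. Of 19 genes of PKA, EPAC and their anchoring proteins, 6 rose and 12 fell, 6 of these at least 2-fold. Both PKA inhibitor genes that could be tested fell, Pkia by -2.37 ± 0.09 and Pkig by -1.56 ± 0.08. The regulatory subunit Prkar2b (-1.40 ± 0.05) fell and Prkar1a rose (0.39 ± 0.05). EPAC1, encoded by Rapgef3, fell by 2.06 ± 0.12, and the anchoring protein Akap7 (-1.26 ± 0.10) fell where Akap13 (0.54 ± 0.06) rose.

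Crem, whose short isoforms repress cAMP-responsive genes, read 113.6, 144.1, 126.6 and 127.2 normalized counts under vehicle and 3127, 3432, 3178 and 2940 under isoproterenol. It rose by 4.62 ± 0.07 (limma adjusted p = 3.76e-17), the largest change among 11 genes of the CREB, CRTC and SIK group. The table counts reads per gene and does not separate its repressor isoforms from the longer ones. Sik1, a salt-inducible kinase that holds CRTC coactivators in the cytoplasm, rose by 2.12 ± 0.06 and Sik3 by 0.89 ± 0.05, whereas the constitutive factor Creb1 (-0.06 ± 0.05) and the coactivator Crtc2 (0.04 ± 0.06) did not pass.

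Early-response transcription factors were mostly higher at 4 h. All 3 NR4A receptors rose, and they stood together at 233.7 to 297.7 normalized counts in vehicle and 5802 to 6417 in isoproterenol libraries. Nr4a3 read 6.86, 8.76, 7.84 and 6.77 under vehicle and 873.0, 714.3, 664.1 and 799.4 under isoproterenol, and Nr4a1 and Nr4a2 rose by 4.47 ± 0.06 and 3.76 ± 0.14. Promoter windows of Nr4a1 and Nr4a3 are printed above, and none of Nr4a2 is. In the AP-1 and EGR group 15 of 18 rose and 2 fell, against 32.0% and 34.7% of all genes tested. Egr3 (3.33 ± 0.14), Egr2 (3.22 ± 0.12) and Egr1 (2.62 ± 0.08), zinc-finger factors, rose, as did Fos (1.34 ± 0.08), and Fosl1 (2.80 ± 0.08) and Atf3 (2.39 ± 0.12) rose too. Srf, which drives contractile genes, fell by 1.60 ± 0.04. The Kruppel-like factors ran opposite to this group, with 9 of 12 fallen, among them Klf3 (-1.50 ± 0.06), Klf7 (-1.32 ± 0.11) and Klf15 (-1.17 ± 0.14), and with only Klf9 risen (0.11 ± 0.05), a call that was lost when any library but isoproterenol replicate 2 was left out (0.08 to 0.12).

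**Figure D3:**
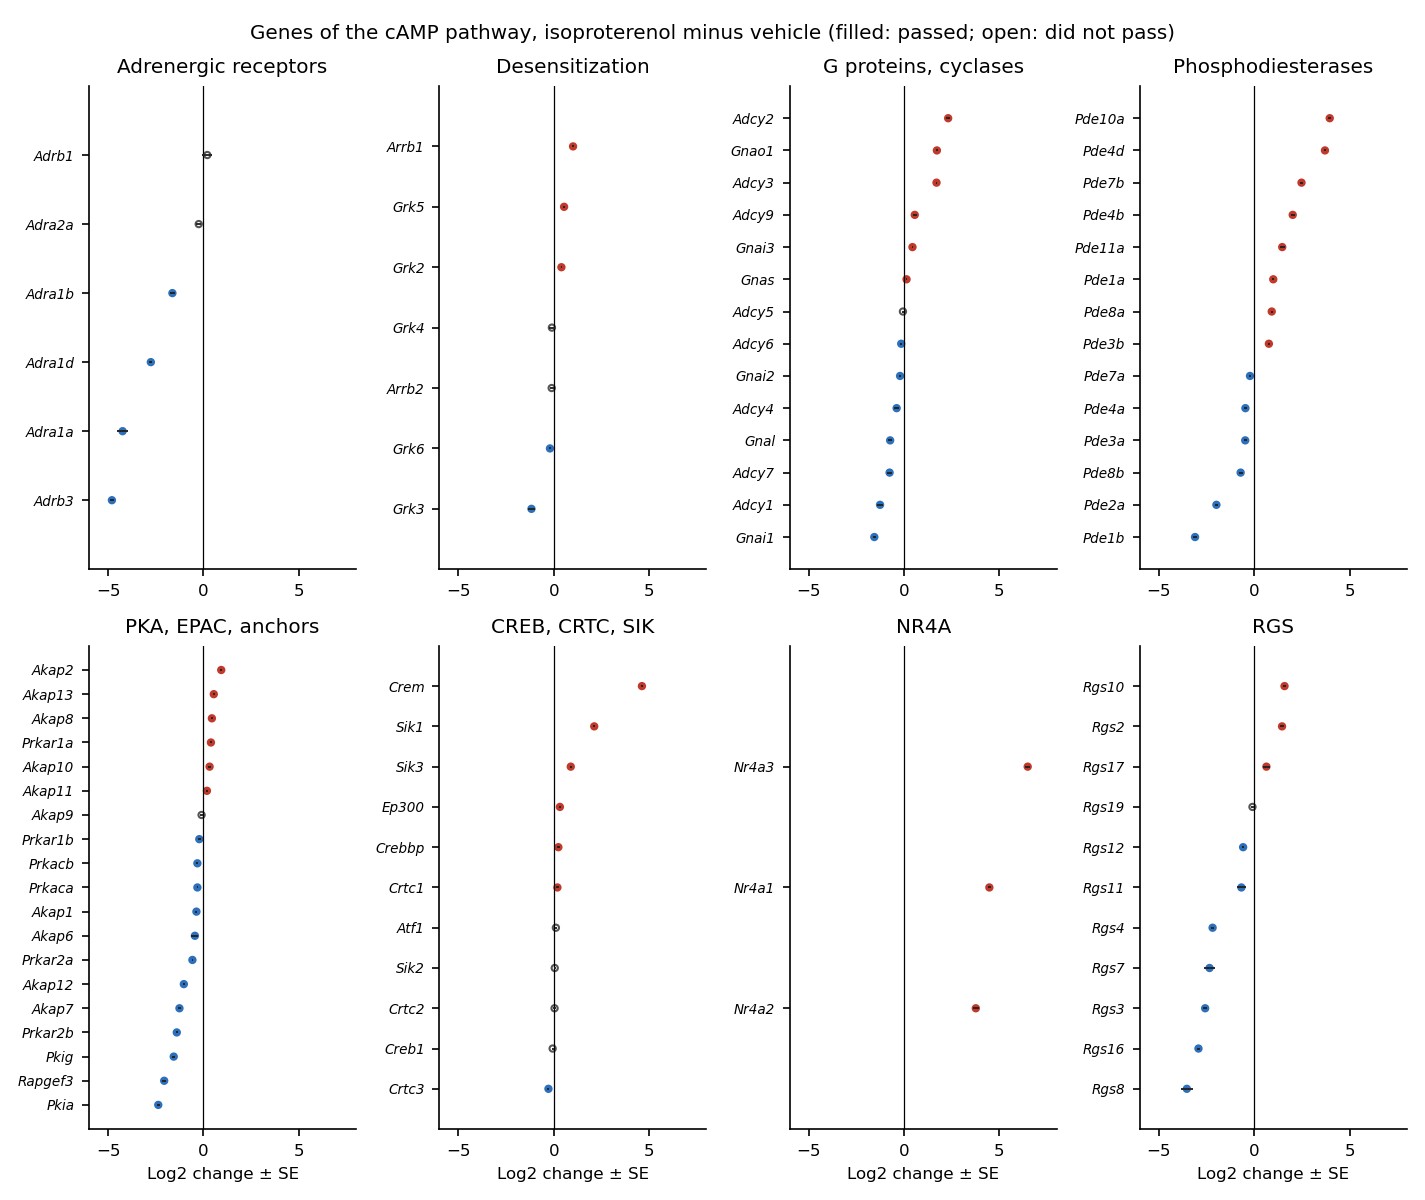
Log2 change (horizontal, isoproterenol minus vehicle) ± standard error of tested genes in 8 groups of the pathway, ordered from receptors to feedback; filled points passed and open points did not pass at a limma adjusted p under 0.05, black bars are standard errors, many shorter than the point, and the place of Rgs8, which had 5 reads under isoproterenol, depends on the pseudocount. Adrenergic receptors lie left of 0 except Adrb1 at 0.20 ± 0.25, NR4A genes lie right of it, and phosphodiesterases spread from -3.11 ± 0.11 to 3.95 ± 0.07.

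Feedback regulators of G-protein and ERK signalling differed. RGS proteins, which shorten the active life of G-protein alpha subunits, fell in 7 of 11 and rose in 3. Rgs16 (-2.93 ± 0.06), Rgs3 (-2.58 ± 0.11), Rgs4 (-2.19 ± 0.08) and Rgs7 (-2.35 ± 0.29) fell, Rgs8 dropped to 5 reads from 146, and Rgs2, a known cAMP-induced member, rose by 1.45 ± 0.10 along with Rgs10 (1.58 ± 0.07). Of 16 feedback inhibitors of ERK, 11 went up and 2 down, led by the phosphatases Dusp14 (2.34 ± 0.16) and Dusp10 (1.47 ± 0.07) and by Spry4 (1.56 ± 0.06), whereas Spry1 fell by 1.95 ± 0.06.

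Cytokine ligands rose and fell in like number, but the rises were larger. Of 15 ligands tested, 7 rose and 5 fell. Beside Il11 and Il33, the IL-6 family ligands Clcf1 (2.71 ± 0.08), Il6 (2.13 ± 0.09) and Lif (1.45 ± 0.04) rose. Il15, which sustains natural killer cells, fell by 2.29 ± 0.19 while its receptor chain Il15ra rose by 3.70 ± 0.08. Il7 (-1.06 ± 0.16), Ctf1 (-1.07 ± 0.21) and the IL-1 antagonist Il1rn (-1.04 ± 0.08) fell, Csf1 changed by -0.32 ± 0.04, and 3 ligands did not pass.

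The receptor of IL-33 rose with its ligand. Il1rl1 (ST2), on chromosome 1 from 40404864 to 40465418, read 200.5, 83.7, 103.0 and 203.7 normalized counts under vehicle and 5091, 4625, 5125 and 5294 under isoproterenol, without overlap, a change of 5.19 ± 0.21 (limma adjusted p = 6.51e-12). Its shared co-receptor Il1rap fell by 1.39 ± 0.05, and Il1r1 rose by 1.49 ± 0.04. The gene does not tell soluble from membrane-bound ST2. Cytokine receptors and JAK-STAT feedback genes counted 11 risen and 6 fallen members of 20. The feedback inhibitors Socs1 (1.66 ± 0.09) and Socs3 (0.99 ± 0.05) rose, and Cish (-1.46 ± 0.10) and Lifr (-1.51 ± 0.07) fell.

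Chemokine genes rose in 9 and fell in 6 of 17. Cxcl14, already high, rose from 15715 ± 1546 to 71686 ± 2635 normalized counts (2.19 ± 0.06), and the scavenger receptor Ackr3 (3.14 ± 0.08), the neutrophil attractant Cxcl1 (2.83 ± 0.13), the B-cell attractant Cxcl13 (2.21 ± 0.15) and Cxcl10 (3.27 ± 0.28) rose as well. Monocyte attractants fell, Ccl2 by -0.68 ± 0.08 and Ccl7 by -1.07 ± 0.07, as did Ccl9 (-0.97 ± 0.07) and Cxcl12 (-0.92 ± 0.07), the ligand of Cxcr4 and Ackr3. Within the TNF superfamily, RANK ligand Tnfsf11 rose by 2.87 ± 0.14, from 28.2, 29.2, 24.1 and 18.3 to 208.1, 189.4, 167.2 and 178.5 normalized counts, while its decoy Tnfrsf11b was among the largest falls described above. Tnfrsf21 (2.96 ± 0.14) and Tnfrsf1b (1.54 ± 0.05) rose and the death receptor Fas fell (-1.78 ± 0.11), and the group counted 6 up and 7 down of 17.

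NF-kB pathway genes, 13 up and 7 down of 26, did not move as one. The atypical inhibitor Nfkbiz (1.66 ± 0.07), Traf1 (2.58 ± 0.38), Tlr2 (1.55 ± 0.13), the RNase Zc3h12a (1.13 ± 0.07) and Bcl3 (1.03 ± 0.06) rose. The feedback inhibitor Tnfaip3 (A20) fell by 2.17 ± 0.11, the pentraxin Ptx3 by -2.91 ± 0.05 and Tlr4 by -1.33 ± 0.06. Complement and acute-phase genes fell in 18 of 26, with C3 at -1.82 ± 0.06, Hp at -1.18 ± 0.05 and Steap4 at -1.49 ± 0.06, against Cd55, the regulator that rose 46.3-fold.

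Of the 24 interferon-stimulated genes tested, 8 were higher under isoproterenol, 5 lower and 11 not called. Trim25 (1.65 ± 0.06) and Oasl1 (3.34 ± 0.29) rose, while Ifit2 fell by 2.39 ± 0.08 and Ifih1 by -0.94 ± 0.17. Isoproterenol replicate 2 stood apart in several of the others. Irf7 read 54.1, 78.9, 52.1 and 39.9 under vehicle and 76.9, 345.8, 124.6 and 70.9 under isoproterenol, and Ifit1 read 20.6, 40.9, 37.0 and 33.2 and 33.2, 145.4, 64.7 and 40.7. Without isoproterenol replicate 2, Irf7 had a log2 change of 0.68 ± 0.22 (limma adjusted p = 0.012) in place of 1.17 ± 0.37, and Ifit1, at 0.89 ± 0.35 with all libraries, was not called (0.46 ± 0.25, limma adjusted p = 0.114). Ifit1 also lost its call without isoproterenol replicate 3, vehicle replicate 1 or vehicle replicate 4. The list counted 5 risen and 10 fallen without isoproterenol replicate 2, and 5 risen without vehicle replicate 1. Markers of macrophages and other leukocytes, with 3 of 9 called higher (7 without isoproterenol replicate 1), summed to 462.9, 587.1, 554.4 and 1051 normalized counts in vehicle replicates 1 to 4 and to 746.7, 1810, 2054 and 1205 in isoproterenol replicates 1 to 4. Their sums were highest in isoproterenol replicates 2 and 3, and their part in these interferon genes was not tested. Of their defining members, Ptprc (CD45) had 5.34, 7.79, 6.72 and 8.80 and 0, 11.7, 18.9 and 3.94 normalized counts, and Csf1r, the receptor for Csf1, rose in every library (1.97 ± 0.10, 165.5, 163.6, 165.8 and 207.1 to 566.1, 765.0, 782.4 and 657.6).

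Growth factor families held members that rose and members that fell. In the EGF family Areg went from 1 read to 95 reads, and Ereg (1.04 ± 0.15), Tgfa (1.02 ± 0.12) and the feedback inhibitor Errfi1 (1.28 ± 0.04) rose, while Nrg1 fell by 2.72 ± 0.13 and Hbegf by -0.71 ± 0.14. FGF ligands that act on epithelium rose, Fgf7 from 3490 ± 34.3 to 8715 ± 333.5 normalized counts (1.32 ± 0.04) and Fgf10 by 1.32 ± 0.05, together with Fgf2 (1.40 ± 0.11), Fgf1 (2.64 ± 0.23) and the receptor Fgfr1 (1.18 ± 0.04). Fgf18 (-1.83 ± 0.07) and Fgf13 (-1.60 ± 0.10) fell, Fgf9 dropped from 101 reads to 2, and the group counted 5 up and 7 down of 12. All 5 PDGF ligand and receptor genes tested fell, from Pdgfd at -1.01 ± 0.07 to Pdgfra at -0.33 ± 0.04 and Pdgfrb at -0.33 ± 0.04. In the IGF axis the binding protein Igfbp5 read 3744, 3219, 3220 and 3499 under vehicle and 35494, 35538, 33935 and 36555 under isoproterenol, a rise of 3.37 ± 0.05 in all 4 libraries. Igfbp3 (1.51 ± 0.10) and Irs2 (0.67 ± 0.07), a known CREB target in other tissues, rose, whereas Stc1 (-2.12 ± 0.08), Grb10 (-0.71 ± 0.05) and Igf1 (-0.45 ± 0.05) fell.

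Angiogenic and vasoactive genes fell in 17 of 22 and rose in 4, where 34.7% of all genes fell. Vegfa was an exception, at 4212, 3693, 3792 and 3974 normalized counts under vehicle and 17311, 16075, 16744 and 17075 under isoproterenol, a rise of 2.10 ± 0.05 (limma adjusted p = 2.80e-15), and so was its receptor Kdr (3.07 ± 0.15, from 13.7 ± 2.08 to 121.5 ± 11.7). The angiopoietins fell, with Angpt1 at -2.09 ± 0.09 and Angpt2 at -1.96 ± 0.10. The vasoconstrictor gene Edn1 fell by 3.97 ± 0.30 and the nitric oxide synthase Nos3 from 219 to 10 reads. Renin-angiotensin and natriuretic peptide genes counted 6 up and 6 down of 14. Angiotensinogen itself, Agt, did not pass (0.04 ± 0.06), the angiotensin-degrading peptidase Enpep rose (2.06 ± 0.06), and the receptors Agtr1a (-0.88 ± 0.05), Npr1 (-1.32 ± 0.09), Npr2 (-0.64 ± 0.06) and the clearance receptor Npr3 (-1.11 ± 0.06) fell.

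Prostaglandin genes rose in 10 of 15 and fell in 3. The inducible cyclooxygenase Ptgs2 (2.03 ± 0.12), the transporters Slco2a1 (1.50 ± 0.07) and Abcc4 (2.26 ± 0.05), which also exports cAMP, and the receptor Ptgfr rose, the last from 39.7, 45.8, 41.4 and 47.4 to 998.5, 941.9, 1003 and 970.0 normalized counts (4.46 ± 0.08). Hpgd, the enzyme that breaks prostaglandins down, fell by 4.14 ± 0.25, and the cAMP-coupled receptor Ptger4 by -1.89 ± 0.15.

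Factors that act on nerves parted. Bdnf, a neurotrophin, read 241.0, 260.0, 255.9 and 268.6 normalized counts under vehicle and 43.7, 44.8, 50.5 and 36.8 under isoproterenol (-2.53 ± 0.10), without overlap. The receptor Ngfr (1.62 ± 0.10), the GDNF co-receptor Gfra1 (3.36 ± 0.12) and the pentraxins Nptx2 (2.62 ± 0.15) and Nptx1, from 9 to 802 reads, rose, while the GDNF receptor Ret fell (-1.18 ± 0.06). Axon guidance genes fell in 14 of 25 and rose in 6, with Sema3c up (1.11 ± 0.07) and Epha4 (-1.81 ± 0.10), Sema3d (-1.66 ± 0.10) and Sema5a (-1.26 ± 0.06) down.

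TGF-beta family members changed in composition. Tgfb1 rose (1.87 ± 0.05) while Tgfb3 (-1.78 ± 0.05) and Tgfb2 (-1.14 ± 0.06) fell, and the receptors Tgfbr1 (1.31 ± 0.05) and Tgfbr3 (1.11 ± 0.05) and the mediator Smad3 (1.32 ± 0.04) rose. The target Tgfbi rose by 2.04 ± 0.11. Acvr1c (ALK7), a receptor of adipocytes, fell by 4.15 ± 0.15 and follistatin Fst by -2.36 ± 0.05. BMP pathway genes fell in 15 of 23 and rose in 7. Bmp4 dropped from 335 to 9 reads, the target genes Id4 (-2.10 ± 0.07), Id3 (-1.26 ± 0.04) and Smad9 (-1.88 ± 0.09) fell, and the antagonists Nog (1.99 ± 0.09), Bambi (1.40 ± 0.08), Bmper (1.26 ± 0.04) and Chrd (1.15 ± 0.09) rose.

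Wnt genes fell in 18 of 30 and rose in 9. Wnt11 rose by 3.90 ± 0.09 and the receptor Fzd1 by 1.75 ± 0.05. Beside the fall of Rspo2, the receptor Fzd5 (-3.12 ± 0.06), the inhibitor Dkk2 (-3.02 ± 0.08) and the feedback gene Nkd2 (-2.61 ± 0.09) were lower, while Axin2, a general reporter of beta-catenin activity, did not pass (0.33 ± 0.16), though it was called without isoproterenol replicate 4, at 0.46, with all 16 libraries in the fit, and with quantile normalization, at 0.52. In the Notch pathway Notch2 rose by 1.95 ± 0.05, Notch3 (-1.40 ± 0.07), Jag1 (-1.11 ± 0.08), Lfng (-2.97 ± 0.18) and Hey2 (-2.03 ± 0.43) fell, and 7 of 10 genes were down in all. Of the retinoic acid genes 7 of 17 fell, including the degrading enzyme Cyp26b1 (-1.75 ± 0.05), the target Rarb (-1.53 ± 0.08) and the synthetic enzyme Aldh1a3 (-1.26 ± 0.10), and Crabp2 rose (4.09 ± 0.24, to 87.5 ± 19.7 normalized counts).

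The contractile cytoskeleton fell almost throughout. Of 38 SRF-driven contractile and focal adhesion genes, 33 fell and 2 rose, with a median log2 change of -0.96 against -0.02 for all genes tested. Fhl2, a LIM-domain cofactor, on chromosome 1 from 43123071 to 43198343, read 2892, 2790, 2956 and 2822 normalized counts under vehicle and 136.0, 123.3, 126.2 and 145.7 under isoproterenol (-4.42 ± 0.06). Focal adhesion proteins followed, with vinculin Vcl at -2.47 ± 0.04 and zyxin Zyx at -2.18 ± 0.06. Cytoplasmic actin Actb changed by -1.62 ± 0.04, and smooth muscle actin Acta2 read 99636, 97000, 95445 and 105636 under vehicle and 66949, 72237, 66336 and 67181 under isoproterenol, a smaller change of -0.54 ± 0.05. The exceptions were Synpo2 (1.43 ± 0.05) and Cald1 (0.22 ± 0.04), which rose, and 3 genes that did not pass.

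YAP and TEAD targets fell as well, 23 of 26 down, with a median of -1.07. Beside Ctgf and Ankrd1, Cyr61 (-3.03 ± 0.04), Cdc42ep3 (-3.63 ± 0.09), the cofactor Vgll3 (-3.08 ± 0.07), Wisp1 (-2.35 ± 0.09) and tissue factor F3 (-1.96 ± 0.04) fell. The coactivator genes moved little, with Wwtr1 (TAZ) not passed (0.04 ± 0.06) and Yap1 at -0.23 ± 0.04.

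Promoter windows of 2 fallen genes, picked by hand, are printed here, and those of other fallen genes such as Ctgf and Cyr61 are not shown. The windows of Vcl and Fhl2 each hold a CArG box, the site of SRF, and that of Vcl also the TEAD motif GGAATG. The TEAD motif does not set fallen genes apart. On 1 strand or the other it also occurs, in lower case, in the windows of the risen genes Dio2, Nr4a1 and Nr4a3 printed above. A window at another Fhl2 start also holds a CArG box and is not printed. CArG boxes occur in 1.47% and the TEAD motif in 12.64% of the 32851 windows, on either strand. The box lies 218 bases before the start in Vcl and 22 before the Fhl2 start used, and each window belongs to 1 annotated start. Capitals mark matches to the CArG box and the TEAD motif only. The Fhl2 window also holds the half-site of the cAMP response element, as CGTCA, in lower case, so the half-site is not limited to risen genes.
Vcl, chr14:20929148-20929397, plus strand: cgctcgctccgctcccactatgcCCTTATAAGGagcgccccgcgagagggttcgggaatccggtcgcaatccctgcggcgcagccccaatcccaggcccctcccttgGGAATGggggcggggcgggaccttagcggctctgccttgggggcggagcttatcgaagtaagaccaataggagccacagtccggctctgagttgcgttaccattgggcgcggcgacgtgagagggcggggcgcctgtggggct
Fhl2, chr1:43163962-43164211, minus strand: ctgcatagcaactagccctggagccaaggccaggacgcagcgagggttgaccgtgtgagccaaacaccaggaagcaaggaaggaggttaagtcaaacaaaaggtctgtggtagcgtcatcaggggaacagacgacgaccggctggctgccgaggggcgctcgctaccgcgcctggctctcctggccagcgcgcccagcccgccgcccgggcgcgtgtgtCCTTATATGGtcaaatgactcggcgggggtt

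Matrix genes moved both ways. Of 22 collagen genes 5 rose (8 with quantile normalization), 10 fell and 7 did not pass, and the fibrillar Col1a1 (0.04 ± 0.06) was among the last, with a called change of 0.27 after quantile normalization. The basement membrane chains Col4a1 (0.91 ± 0.04) and Col4a2 (0.67 ± 0.04) rose together, and Col8a1 (-1.01 ± 0.04) fell. Matrix glycoproteins rose in 15 and fell in 13 of 36. Thbs1, thrombospondin 1, an activator of latent TGF-beta, on chromosome 2 from 118111876 to 118127133, read 202135, 199490, 201288 and 201241 normalized counts under vehicle and 12477, 11549, 11938 and 13004 under isoproterenol (-4.04 ± 0.05, limma adjusted p = 2.99e-18). Of genes that make or bind hyaluronan, Has1, Has2 (1.51 ± 0.08), the hyaluronan-binding proteoglycan versican Vcan (3.32 ± 0.06, from 5905 ± 328.7 to 59002 ± 5102 normalized counts) and Tnfaip6 (4.27 ± 0.06), which modifies hyaluronan, were higher, and the receptor Cd44 was lower (-0.66 ± 0.05). Among crosslinking enzymes Lox (-0.73 ± 0.05) and Loxl4 (-1.03 ± 0.06) fell and transglutaminase Tgm2 rose (1.20 ± 0.05).

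Matrix proteases and inhibitors moved both ways, 14 up and 14 down of 31. The ADAMTS proteases, which cut proteoglycans, parted, with Adamts4 at 4.20 ± 0.05 and Adamts9 at 2.32 ± 0.05 against Adamts5 at -2.95 ± 0.06, Adamts6 at -1.76 ± 0.18 and Adamts15 at -1.31 ± 0.08. Both plasminogen activators rose, Plau by 1.88 ± 0.04 and Plat by 1.09 ± 0.06, and gelatinase Mmp2 rose by 1.64 ± 0.04. Integrin subunits fell in 10 of 18, led by Itga1 (-1.20 ± 0.05), and the laminin receptor subunit Itga7 rose (2.47 ± 0.06).

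**Figure D4:**
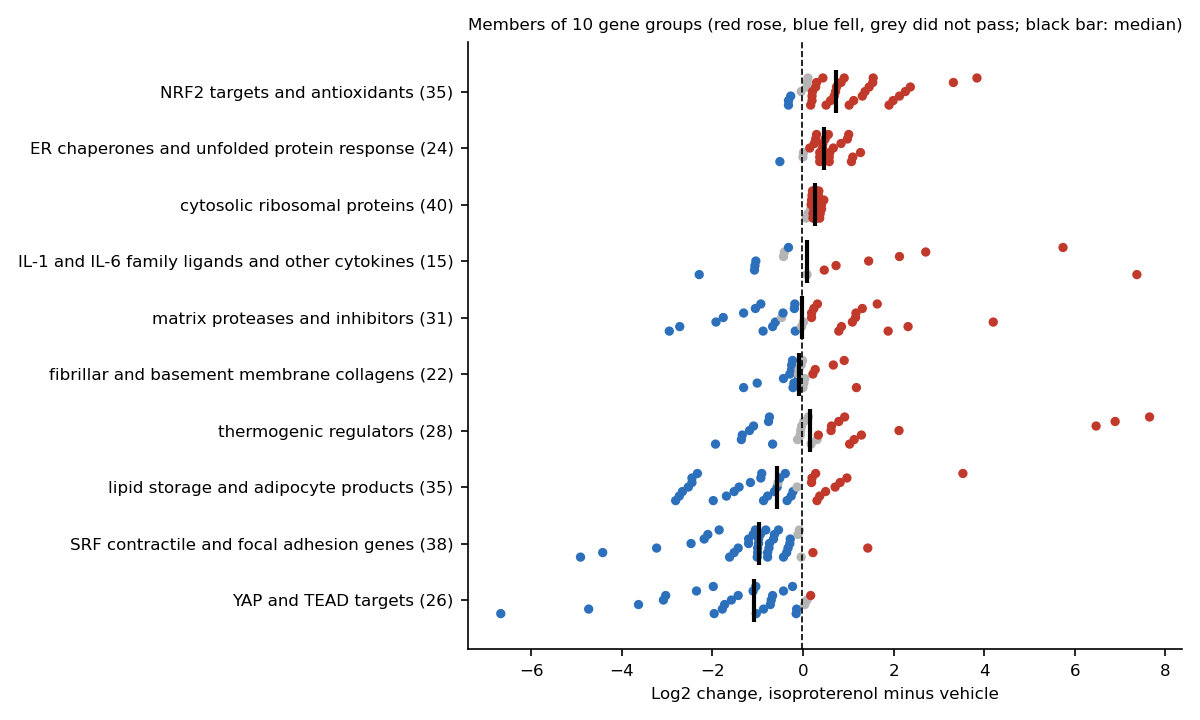
Log2 change (horizontal, isoproterenol minus vehicle) of every tested member of 10 gene groups, 1 point a gene, with the group median as a black bar and the median of all genes tested as a dashed line. Contractile and YAP groups lie mostly left of the line (medians -0.96 and -1.07), NRF2 and ER chaperone groups mostly right of it (0.72 and 0.46), and collagens close to it (-0.10).

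Adipogenic transcription factors were lower on balance, 16 of 26 down and 6 up. Cebpa, which holds the adipocyte state, fell by 1.46 ± 0.05, Cebpd by -1.64 ± 0.05, the carbohydrate-responsive Mlxipl by -1.96 ± 0.11 and Pparg by -0.50 ± 0.05, while Cebpb, a cAMP-induced factor of early adipogenesis, rose by 1.53 ± 0.04. Lipid storage genes and adipocyte products fell in 23 of 35 and rose in 10. Plin1, which coats the lipid droplet, read 3090, 3444, 3357 and 3136 normalized counts under vehicle and 587.9, 610.1, 580.5 and 480.4 under isoproterenol (-2.53 ± 0.07, limma adjusted p = 2.98e-14). Plin4 (-2.81 ± 0.04), Gpd1 (-2.73 ± 0.09), the glucose transporter Slc2a4 (-2.66 ± 0.32) and Cidec (-2.45 ± 0.09) fell too. Against this, Dgat1, which makes the last bond of triglyceride, read 879.2, 831.5, 868.6 and 812.0 under vehicle and 9570, 11344, 9523 and 8978 under isoproterenol (3.53 ± 0.06), and Elovl6 rose by 0.97 ± 0.05. All 8 mature adipocyte markers tested fell and summed to 26057 to 30240 normalized counts in vehicle and 7979 to 8958 in isoproterenol libraries, and in bulk samples fewer cells of a type and less RNA per cell cannot be told apart. Their part in the lipid storage genes was not tested.

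Genes of lipolysis itself were lower at several steps. Lipe (hormone-sensitive lipase) changed by -2.00 ± 0.06, Pnpla2 (adipose triglyceride lipase) by -1.53 ± 0.06, the glycerol channel Aqp7 by -2.19 ± 0.10 and the lactate receptor Hcar1, which restrains lipolysis, by -3.03 ± 0.13, whereas the lipase coactivator Abhd5 rose by 1.15 ± 0.05. Fatty acid handling rose at other points, with the acyl-CoA synthetases Acsl4 (3.21 ± 0.06, from 1625 ± 79.0 to 15086 ± 1257 normalized counts) and Acsl3 (1.13 ± 0.07), the carnitine transferase Cpt1a (1.87 ± 0.05) and Ucp2 (3.08 ± 0.09) higher, and Pdk4 (-2.56 ± 0.08) lower. The group counted 9 up and 14 down of 26.

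Thermogenic regulators rose in 12 of 28 and fell in 8, so that the group as a whole was mixed. Ucp1, the uncoupling protein of brown fat, had 0, 1.95, 1.12 and 0.677 normalized counts under vehicle and 156.3, 222.5, 137.2 and 132.6 under isoproterenol, 5 against 684 reads, a ratio of 191.9 (81.8 to 593.0). Its level stayed low in every library. Cited1, a marker of beige adipocytes, went from 3 to 669 reads, Zfp516 rose by 1.29 ± 0.05, Ppargc1a by 1.13 ± 0.11 and Tbx15 by 0.92 ± 0.04. Prdm16 (-0.74 ± 0.10), Ppargc1b (-1.18 ± 0.24), Ppara (-0.67 ± 0.19) and Cox8b (-1.93 ± 0.36) fell, and Cox7a1 (0.18 ± 0.21) and Tfam (-0.05 ± 0.07) did not pass. Nuclear genes of the respiratory chain had 21 of 39 not passed and a median of 0.07. Mitochondrially encoded genes summed to 270959 to 301309 normalized counts under vehicle and 209356 to 298105 under isoproterenol, lowest in isoproterenol replicate 3.

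Glucose metabolism showed selective rises. Of 37 glycolysis and hypoxia genes 18 rose and 11 fell. The lactate transporter Slc16a1 (3.02 ± 0.05), hexokinase Hk2 (1.58 ± 0.06), the mTOR inhibitor Ddit4 (2.93 ± 0.07), the oxygen sensor Egln3 (2.89 ± 0.12) and Ndrg1 (2.08 ± 0.09) rose, while Pfkfb1 (-1.61 ± 0.13), Nampt (-1.04 ± 0.06) and Pdk1 (-0.86 ± 0.05) fell and Hif1a changed by -0.30 ± 0.06. For glycogen, the targeting subunit Ppp1r3c rose by 2.11 ± 0.07 and glycogenin Gyg fell by 1.98 ± 0.06.

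NRF2 targets and antioxidant genes rose in 28 of 35 and fell in 3, 14 of the rises at least 2-fold. Srxn1 (3.84 ± 0.05), the cystine transporter Slc7a11 (3.32 ± 0.07), Nqo1 (2.37 ± 0.07), Gsta4 (2.26 ± 0.12) and haem oxygenase Hmox1 (2.13 ± 0.05) led them. ER chaperones rose in 21 of 24, by smaller steps, such as BiP (Hspa5) at 0.98 ± 0.04, Hyou1 at 1.01 ± 0.04, Sdf2l1 at 1.27 ± 0.08 and Creld2 at 1.10 ± 0.06, whereas ATF4 and amino acid genes fell in 22 of 36, among them Chac1 (-1.46 ± 0.11), Cbs (-1.41 ± 0.12) and the glutamine transporter Slc1a5 (-1.08 ± 0.04). Heat shock genes rose in 11 of 19 and fell in 6, with 2 rises and 2 falls of at least 2-fold. The 2 rises were Hsph1 (2.78 ± 0.04, from 1629, 1653, 1628 and 1760 to 11320, 11404, 11717 and 11310 normalized counts) and Bag3 (2.02 ± 0.05). Slc7a11 was counted both with the NRF2 and with the ATF4 genes.

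Sterol synthesis genes were evenly split, 12 up and 12 down of 28, but the mevalonate enzyme Pmvk rose by 3.22 ± 0.06, the cholesterol exporter Abca1 by 1.40 ± 0.05 and its relative Abcg1 fell by 2.37 ± 0.13. Glucocorticoid genes were mixed too, with 7 risen, 6 fallen and 3 not passed of 16 and a median of 0.13. Both receptors were lower, Nr3c1 at -1.13 ± 0.05 and Nr3c2 at -1.94 ± 0.26, as was the classical target Fkbp5 (-0.49 ± 0.06). In the circadian clock, Rorb (2.67 ± 0.14), Bhlhe40 (1.69 ± 0.06), Arntl (1.58 ± 0.05), Nfil3 (1.15 ± 0.05) and the cAMP-responsive Per1 (0.72 ± 0.06) rose, Per3 (-1.53 ± 0.08), Npas2 (-1.07 ± 0.19) and Dbp (-0.81 ± 0.10) fell, and Nr1d1 (-0.05 ± 0.06) did not pass. Polyamine genes rose in 9 of 13, led by Sat1 (1.03 ± 0.05) and Smox (0.91 ± 0.08).

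Genes of the growth machinery rose by small steps. Ribosome biogenesis genes rose in 28 of 29, with a median of 0.44, Eif4e at 1.20 ± 0.05 and Rrp1b at 1.13 ± 0.06, and only the Myc antagonist Mxd4 fell (-0.76 ± 0.05). For 37 of 40 genes of cytosolic ribosomal proteins the level was higher, and the list's median was 0.26. Cell cycle genes had 16 of 46 not passed, 10 risen and 20 fallen. Top2a (0.50 ± 0.05) and Ccnd2 (0.40 ± 0.04) rose, while Cdkn2b (-1.10 ± 0.11), Ccne2 (-0.72 ± 0.11) and Mcm6 (-0.69 ± 0.05) fell. Among apoptosis genes the pro-death Bcl2l11 (Bim) rose by 1.40 ± 0.07 and Bmf fell by 2.96 ± 0.11, and the protective Mcl1 (0.66 ± 0.04) rose and Bcl2 (-1.67 ± 0.09) fell.

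Membrane genes changed along several lines. Channels of potassium and calcium counted 12 up and 16 down of 32, with Kcnh1 (4.75 ± 0.18), Kcnj8 (2.74 ± 0.20), Cacna1d (2.61 ± 0.13) and Kcne4 (2.57 ± 0.05) up and Kcnab1 (-2.75 ± 0.13), Kcnk2 (-1.81 ± 0.13) and Cacna1a (-1.48 ± 0.05) down. Purine genes fell in 13 of 21, but the cAMP-raising adenosine receptor Adora2a (1.51 ± 0.15) and alkaline phosphatase Alpl (2.27 ± 0.07) rose, and Adora1, which lowers cAMP, dropped from 86 to 5 reads. Sphingolipid genes included rises of the S1P receptors S1pr1 (1.33 ± 0.05) and S1pr3 (0.98 ± 0.06) and of the kinase Sphk1 (1.22 ± 0.08), and falls of Smpd3 (-2.22 ± 0.15) and Cers4 (-1.17 ± 0.07). Junction genes fell in 11 of 20, including Gjb2 (-2.39 ± 0.38), while connexin 43, Gja1, rose (0.55 ± 0.06).

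Positional and mesenchymal identity genes moved in both directions. HOX and related genes rose in 10 and fell in 12 of 31, close to the 32.0% and 34.7% of all genes tested. Most of these changes were less than 2-fold, with Tbx5 (2.26 ± 0.10) and Tbx3 (1.70 ± 0.08) as the largest rises. Mesenchymal factors counted 12 up and 19 down of 41. Dlx3 (4.59 ± 0.12), Hand2 (1.93 ± 0.10), Twist2 (1.67 ± 0.06) and Snai1 (1.04 ± 0.06) rose, and Tcf21 (-3.90 ± 0.29), Foxs1 (-2.76 ± 0.11), Foxc1 (-2.20 ± 0.05) and Meox2 (-1.30 ± 0.10) fell.

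Markers that divide fat progenitors moved both ways in each set. Of the DPP4+ interstitial progenitor markers 14 of 25 rose and 10 fell, with Pi16, Il33, Cd55, Igfbp5 and Ackr3 up and Limch1 (-2.31 ± 0.14), Creb5 (-1.21 ± 0.12), Anxa3 (-0.79 ± 0.04) and Dpp4 itself down. Committed preadipocyte markers fell in 11 of 19 and rose in 5, among them Aoc3 (-1.22 ± 0.04) and Apoe (-0.97 ± 0.05) down and Cxcl14 up, and CD142+ progenitor markers counted 8 up and 7 down of 16, with Mgp (2.69 ± 0.07) and Fmo2 (1.49 ± 0.11) against Adamts5 and F3, the gene of CD142. The stromal identity genes stayed high, with 6 of 12 not passed and a median of -0.04.

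Markers of cells that the sort could have carried along differed in level and direction. Endothelial markers summed to 217.3 to 253.7 normalized counts in vehicle and 244.1 to 322.3 in isoproterenol libraries, and Pecam1 (0.34 ± 0.38) did not pass. Mural markers summed to 110460 to 121722 and 75903 to 82508, mostly through Acta2, with 8 of 12 down, Cspg4 at -1.92 ± 0.18 and Kcnj8 up, and their part in the fall of contractile genes was not tested. Pericyte-specific Rgs5 had 6.10, 10.7, 8.40 and 8.12 normalized counts under vehicle and 17.8, 5.14, 17.4 and 7.88 under isoproterenol. Epithelial markers had sums of at most 142.1 in vehicle and 137.7 in isoproterenol libraries, and Epcam was at 0 in 5 of the 8. Of the mesothelial list only Krt19 could be tested, and it rose (1.09 ± 0.09), with Msln near 0. Of 4 Schwann markers tested, 1, Ngfr, rose and 3 fell. Schwann markers summed to 458.3 to 642.6 normalized counts in vehicle and 1168 to 1347 in isoproterenol libraries, mostly through Ngfr. Muscle markers, with Myod1 near 0, summed to 1106 to 1439 and 654.6 to 821.7 through Acta1 and Des.

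**Figure D5:**
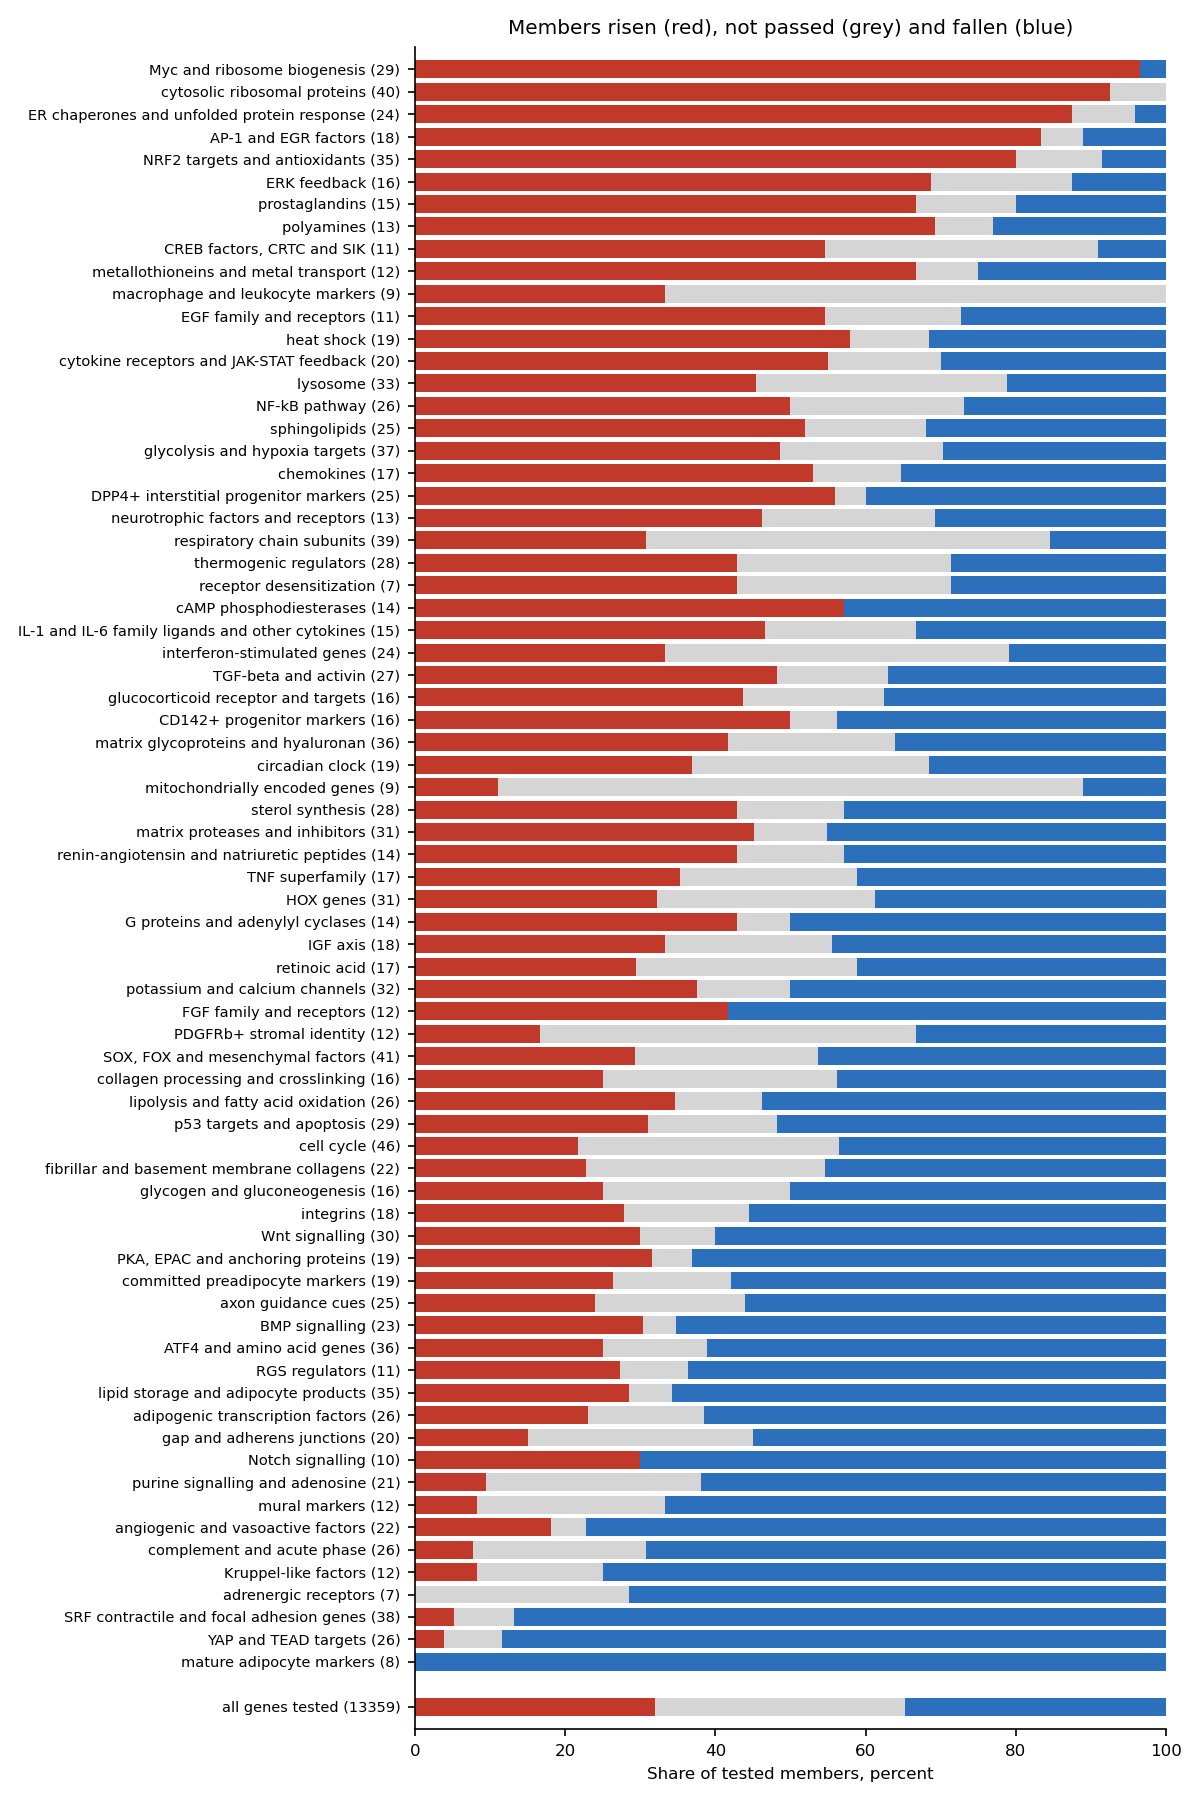
Share of tested members (horizontal, percent) that rose (red), fell (blue) or did not pass (grey) in gene groups with at least 7 tested members, ordered by the difference between risen and fallen shares, with all 13359 genes tested as the bar set apart at the bottom. Ribosome biogenesis, ribosomal protein, ER chaperone and NRF2 groups stand at the risen end, and YAP, contractile and adipocyte groups at the fallen end, against 32.0% risen and 34.7% fallen over all genes.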

How the data were processed

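RNA-seq of 500 ng of total RNA (NEBNext Ultra II kit, per the labels' protocols) was analysed from the table that the authors deposited, whose signal values are reads per gene divided by a size factor of each library. Per the submitters' processing notes, DESeq2 1.6.3, featureCounts 1.4.6, HISAT2 2.0.1 and Trim Galore 0.4.1 were used, and the builds named are GRCm38 and mm10. The sources used here give neither strand nor counting options, so overlapping and antisense genes cannot be told apart. Whole reads were recovered from all 280334 values above 0 (100.0% whole within 0.001). Of 27179 entries, 958 had no symbol, with 0.096% of the normalized counts, and stayed in the fit unnamed. The 26 symbols turned into dates by a spreadsheet were restored through their Entrez numbers, of which 25275 matched RefSeq (GRCm38.p6), the source of coordinates and promoters.

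The 4 isoproterenol and 4 vehicle libraries of DPP4_neg cells were fitted with limma 3.58.1 in R 4.3.3 (mean-variance trend, pseudocount 1, no covariate). The same fit was tested on simulated data. Alternatives were pseudocounts of 0.5 and 5, other filters, quantile normalization, edgeR 4.0.16 (quasi-likelihood, TMM) and DESeq2 1.42.0 on the recovered reads, the replicate number as a block, all 16 libraries in one fit, and leaving out each library. Every pair of libraries within a group differed by more than sampling noise (chi-square per degree of freedom from 1.618 to 9.387).

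The 80 gene lists and the members named were chosen with earlier results of these data known. Named genes are the 15 largest rises and falls (called, mean of at least 50 normalized counts, groups that do not overlap, over 10 reads in each group), the 6 largest read ratios, up to 5 genes a direction in each list, list members that did not pass, and Adrb1, Adrb3, Dpp4, Pdgfrb, Pdgfra, Il33, Ucp1, Ppargc1a, Pparg, Nr4a1, Ccl2 and Crem. The following fall outside that rule and were named after their values were seen: Acta2, Actb, Adipoq, Cd44, Cyp11a1, Epcam, Fkbp5, Fos, Hif1a, Hk2, Hsd3b6, Ifit1, Igf1, Irf7, Msln, Myod1, Npas4, Plat, Pnpla2, Ppara, Prdm16, Ptprc, Rgs5, Scarb1, Socs3, Sox10, Wisp1, Yap1. Of the 1832 genes searched with BLAST 2.17.0 against GENCODE vM21 transcripts, 72 shared at least 50% of their length with another gene at 95% identity. They are counted in the lists and not named. Results for a few other genes are not reported here.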

Additional observations from a re-analysis of the deposited data

Results flagged for a closer look

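Dixon's test for a single extreme library was applied to the 78 groups of 4 libraries whose values stand in the report, and 3 went past its critical value at the 95% level, where chance would flag about 1 in 20. Acta2 read 72237 normalized counts in isoproterenol replicate 2, against 66336 to 67181 in the other isoproterenol libraries. Csf1r read 207.1 normalized counts in vehicle replicate 4, against 163.6 to 165.8 in the other vehicle libraries, and leukocyte markers were also highest there among vehicle libraries, at 1051 normalized counts in sum. The summed epithelial markers stood at 137.7 normalized counts in isoproterenol replicate 1, against 31.5 to 48.5 in the other isoproterenol libraries.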

How the results depend on the processing

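The counts over all genes kept within 1.5 times of their values under every alternative run. Between 7952 and 9497 genes were called across the other settings and between 8261 and 8969 when a library was left out. For calls of at least 2-fold these ranges were 1423 to 2834 and 1930 to 1993, and for genes whose groups do not overlap 7235 to 8791 and 8295 to 8811. On the recovered reads edgeR called 8992 genes and DESeq2 8520. With the replicate block the count was 8938. Deviations from the group means of same-numbered libraries had r = 0.205, 0.036, -0.018 and -0.010 for numbers 1 to 4. For libraries of different numbers r ran from -0.205 to 0.108, so that only number 1 lay above that range. The numbers were not taken to pair the libraries. The median log2 change of all genes moved from -0.02 to 0.02 under quantile normalization, and the share of calls that were higher from 48.0% to 51.7%. Of 2718 list counts recomputed, 57 moved by over 1.5 times, in 24 of the 160 counts, each of 13 or fewer genes. Requiring 50 normalized counts lowered the fallen genes to 4 among RGS regulators, 4 in the FGF family, 5 among thermogenic regulators and 8 among purine genes, since fewer were tested. List medians moved in 243 of 1359 recomputed values, in 68 of the 80 lists. A median was said to move when it shifted by at least the SD, among libraries, of the list's median deviation from the group mean. Of 402 named genes tested, 3 changed sign, each not called in either fit. Adrb1 ranged from -0.02 (without isoproterenol replicate 1) to 0.39 when a library was left out. Agt ranged from -0.02 (without isoproterenol replicate 2) to 0.08 in the same way and was -0.04 with quantile normalization, and Wwtr1 at -0.03 with quantile normalization, and the cause was not tested. Ifit1 and Klf9 lost their calls in leave-outs, as given above, and also with no filter on low values (0.89 and 0.11), Klf9 with quantile normalization (0.06), and Ifit1 with DESeq2 (1.13) and with all 16 libraries in the fit (0.89). The pseudocounts changed the fitted size of genes with few reads, for which read ratios are given. Depth limits genes with a few reads in a group, such as Ucp1 and Ren1 under vehicle.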

Other observations

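Metal-handling genes, which stand in no comparison above, rose in 8 of 12 and fell in 3. The metal-binding proteins Mt1 (0.90 ± 0.05) and Mt2 (0.95 ± 0.08) and the zinc importer Slc39a14 (1.11 ± 0.06, from 1365 ± 87.2 to 2951 ± 237.3 normalized counts) rose, and so did the zinc exporter Slc30a1 (0.83 ± 0.07). The iron exporter ferroportin, Slc40a1, fell by 1.69 ± 0.24. Lysosomal genes rose in 15, fell in 7 and did not pass in 11 of 33, and the galactosidase gene Gla, at 1.10 ± 0.08, was the only one of the 33 called at 2-fold.

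Genes of glycogen and gluconeogenesis fell in 8 of 16 and rose in 4. The glycogen phosphorylases Pygb (-0.79 ± 0.04) and Pygl (-0.68 ± 0.06) fell, and the branching enzyme Gbe1 rose by 0.65 ± 0.06. Among p53 targets and apoptosis genes, 15 of 29 fell and 9 rose, with Bbc3 (Puma) at -1.16 ± 0.10 and Gadd45a at 1.27 ± 0.09.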
